A study of Mus musculus with 9 samples.

Results

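The genes described here carry the symbols of mitochondrial ribosomal proteins. They were taken as every gene whose symbol is Mrpl or Mrps followed by a number and at most 1 letter, which gave 78 of the 56691 genes in the deposited tables. Of these, 49 carry an Mrpl symbol (large subunit) and 29 an Mrps symbol (small subunit), and 6 further matching names that mark pseudogenes were left out. All 78 passed the filter on low counts and are among the 16903 genes tested. The genes were matched by name alone, but the family itself was chosen with earlier results of these data known. Large and small subunit genes are split by symbol throughout, although the ribosome structures place Mrps18a and Mrps30 in the large subunit and do not hold Mrps36.

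The mitochondrial ribosome, or mitoribosome, translates the few messenger RNAs that the mitochondrial genome encodes, all of which give subunits of the oxidative phosphorylation complexes. Its ribosomal RNAs come from the mitochondrial genome, while its proteins are encoded in the nucleus, made in the cytosol and imported. Some of these proteins have counterparts in bacterial ribosomes and others are found in mitochondria alone. NRF1 (nuclear respiratory factor 1) is a transcription factor known for binding the promoters of nuclear genes with mitochondrial functions.

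The study differentiated mouse BVSC PSCs, pluripotent stem cells with a Blimp1 reporter (BV, mVenus) and a Stella reporter (SC, CFP), into embryoid bodies (EBs) and sorted the cells by the BV reporter. There were 9 RNA-seq libraries in 4 groups: BV+ NRF1 OE (n = 2), BV+ Ctrl (n = 2), BV- NRF1 OE (n = 3) and BV- Ctrl (n = 2). NRF1 OE cells carried a doxycycline (DOX)-inducible p20 vector with an Nrf1 cDNA and Ctrl cells the empty p20 vector, and the cells of all groups received DOX (1.5 μg/mL) on days 2 to 5 of differentiation. The BV+ cells stand in the study for PGC-like cells (PGCLCs), an in vitro model of primordial germ cells (PGCs), and the BV- cells for somatic cells, and the labels do not say whether the replicates came from separate cultures, so p-values measure the spread between these libraries.

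Total counts ranged from 13702162 to 19625460 per library, and the 78 genes held between 0.376% and 0.528% of them. Nrf1 itself, given here in CPM (read counts per library size, scaled with TMM factors), lay at 95.7 and 99.4 in BV+ NRF1 OE and at 91.1 and 90.4 in BV+ Ctrl. It lay at 119, 122 and 126 in BV- NRF1 OE and at 99.1 and 105 in BV- Ctrl. Every NRF1 OE library was above every Ctrl library of its population, but the difference did not pass the test in BV+ (log2 fold change 0.10 ± 0.10 SE, adjusted p = 0.489) or in BV- cells (0.26 ± 0.10, adjusted p = 0.0718). The groups are therefore named by their labels.

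Marker levels were set against the sort. Prdm1, which encodes Blimp1 and drives the BV reporter, lay at 57.5 and 62.8 CPM in BV+ Ctrl and at 58.6 and 57.3 CPM in BV- Ctrl. None of 8 PGC markers was higher in BV+ than in BV- libraries by the test. Of all genes tested, 1.1% were called higher in BV+ at Ctrl and 9.9% with NRF1 OE, so few such calls among 8 genes would be looked for. With NRF1 OE, 3 of the 8 were lower in BV+ libraries (background 3.85% of all genes), namely Dppa3, Tfap2c and Nanos3. The summed level of the 8 genes was 279 to 310 CPM in the 4 BV+ libraries and 330 to 424 CPM in the 5 BV- libraries, and each had reads in every library. The 3 mesenchyme markers Col1a1, Col1a2 and Acta2 summed to 195 and 201 CPM in BV+ Ctrl, 704 and 1188 in BV+ NRF1 OE, 44.1 and 56.0 in BV- Ctrl, and 73.1 to 107 in BV- NRF1 OE. The marker levels thus go against the label of the BV+ libraries as germ cells. The groups are called BV+ and BV- for the sort alone, and in bulk samples fewer cells of a type and less RNA per cell cannot be told apart.

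Levels between genes were compared as FPKM, the deposited fragment counts scaled for transcript length and library size, averaged over the 9 libraries. The median of the 78 genes was 21.2 FPKM, with quartiles at 12.5 and 31.6. The highest were Mrpl2 at 96.4 FPKM, Mrpl12 at 86.0 and Mrpl34 at 84.2. Mrpl2 is a core protein of the large subunit next to the site of peptide bond formation, Mrpl12 forms the stalk that recruits translation factors, and Mrpl34 is a small protein with a bacterial counterpart. Their order is not settled by the libraries, which ranged from 72.6 to 137 FPKM for Mrpl2, from 63.0 to 124 for Mrpl12 and from 65.8 to 114 for Mrpl34. The lowest were Mrpl48 at 2.89 FPKM, Mrpl23 at 1.52 and Mrpl53 at 0.783. Mrpl53 had 6 to 20 reads per library, while every other gene of the 78 had at least 103, so no direction can be read for Mrpl53.

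Promoter sequences came from RefSeq on GRCm38.p6, 250 bases before to 50 after the transcription start, whereas the counts were made on GRCm39. Windows were found for 69 of the 78 genes. Mrpl4, Mrpl13, Mrpl15, Mrpl19, Mrpl38, Mrpl54, Mrps28, Mrps34 and Mrps35 had none. The NRF1 motif (GCGC, then A, any base and GCGC again, or its reverse complement) was in the windows of 13 of the 69 genes (18.8%), compared with 5.19% of all 27025 genes with a window and 10.5% of the 11654 of them that were tested. Of the 13 genes, 10 are large subunit and 3 small subunit genes. Letters of the ETS (GABP) motif, CCGGAAG on either strand, were in 26 of the 69 (37.7%), against 9.93% of all genes and 18.7% of those tested, and the YY1 letters AAGATGGCG in 8 (11.6%), against 1.64% and 3.28%. These matches are descriptions of the windows, not binding sites.

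The windows of 6 genes are printed below, with matches to the NRF1 motif in capitals. Mrpl9, Mrpl12 and Mrpl57 are shown as examples of genes that hold a match and rose in at least 1 comparison. Mrpl14 and Mrpl17 also hold a match and rose in BV- cells, but their windows are not printed. Mrpl45 holds 3 matches, the most of any of the 69 genes, and Mrpl32 is the 1 gene of the 69 whose match extends to the full NRF1 palindrome, the same motif with T as its free base and flanked by T and A. Mrpl55 is shown because it had the highest rise in BV+ cells and its window holds no match. The windows lie at chr3:94443086-94443385 (Mrpl9, + strand), chr11:120484387-120484686 (Mrpl12, +), chr14:57825989-57826288 (Mrpl57, +), chr11:97315466-97315765 (Mrpl45, +), chr13:14612988-14613287 (Mrpl32, -) and chr11:59202236-59202535 (Mrpl55, +), and each is written 5′ to 3′ on the strand of its gene.
Mrpl9: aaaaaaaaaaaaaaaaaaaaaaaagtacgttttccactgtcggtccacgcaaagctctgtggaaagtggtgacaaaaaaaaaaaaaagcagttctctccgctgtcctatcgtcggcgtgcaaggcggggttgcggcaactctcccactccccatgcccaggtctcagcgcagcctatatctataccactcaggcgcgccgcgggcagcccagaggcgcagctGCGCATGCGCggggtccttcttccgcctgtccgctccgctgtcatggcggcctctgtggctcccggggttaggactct
Mrpl12: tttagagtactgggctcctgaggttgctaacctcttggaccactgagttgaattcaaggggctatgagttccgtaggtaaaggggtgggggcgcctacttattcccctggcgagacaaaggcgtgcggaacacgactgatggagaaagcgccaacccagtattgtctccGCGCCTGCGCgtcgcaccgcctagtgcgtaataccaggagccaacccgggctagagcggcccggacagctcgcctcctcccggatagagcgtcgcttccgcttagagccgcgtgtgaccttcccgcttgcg
Mrpl57: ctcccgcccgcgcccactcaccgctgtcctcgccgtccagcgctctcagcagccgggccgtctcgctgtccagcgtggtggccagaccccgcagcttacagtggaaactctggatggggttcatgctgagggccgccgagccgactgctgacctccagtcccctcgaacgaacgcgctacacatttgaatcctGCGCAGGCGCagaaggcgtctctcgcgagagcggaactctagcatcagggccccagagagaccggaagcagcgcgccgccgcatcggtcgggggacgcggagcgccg
Mrpl45: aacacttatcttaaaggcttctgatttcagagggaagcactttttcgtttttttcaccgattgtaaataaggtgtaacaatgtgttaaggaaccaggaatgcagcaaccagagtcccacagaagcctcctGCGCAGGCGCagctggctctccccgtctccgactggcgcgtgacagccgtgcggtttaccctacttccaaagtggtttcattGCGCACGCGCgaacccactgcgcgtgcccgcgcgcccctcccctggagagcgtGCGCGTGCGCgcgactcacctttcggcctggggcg
Mrpl32: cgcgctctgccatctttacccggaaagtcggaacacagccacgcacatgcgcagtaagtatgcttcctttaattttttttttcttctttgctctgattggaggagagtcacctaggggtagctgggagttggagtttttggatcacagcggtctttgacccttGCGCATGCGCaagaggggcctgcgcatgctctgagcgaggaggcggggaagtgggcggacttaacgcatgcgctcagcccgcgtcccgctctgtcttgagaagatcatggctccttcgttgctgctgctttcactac
Mrpl55: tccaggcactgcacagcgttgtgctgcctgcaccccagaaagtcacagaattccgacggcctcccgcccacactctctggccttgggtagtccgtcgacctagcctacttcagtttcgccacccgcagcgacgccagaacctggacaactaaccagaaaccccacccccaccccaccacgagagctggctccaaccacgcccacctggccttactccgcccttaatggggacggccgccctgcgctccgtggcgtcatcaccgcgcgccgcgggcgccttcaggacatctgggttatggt
Counted from the transcription start, the match begins at position -28 in Mrpl9, -81 in Mrpl12, -57 in Mrpl57 and -87 in Mrpl32. In these 4 windows it lies within 100 bases upstream of the start. This does not hold for all 3 matches in the window of Mrpl45. The first of them begins at position -120. The next lies within 100 bases upstream of the start, and the last lies downstream of the start.

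In BV+ cells most of the 78 genes were slightly higher with NRF1 OE, and few of them passed the test. Every NRF1 OE library was above every Ctrl library for 61 of the 78 genes (background over all genes tested 38.1%) and below for 3 (background 32%). After adjustment over all genes, 3 rose and 0 fell, or 3.85% of the 78, while 8.02% of all genes tested were called, 6.24% as higher and 1.78% as lower. The median log2 fold change was 0.23 over the 78 genes, 0.22 for the large and 0.24 for the small subunit genes, with 70 of 78 above 0. Over all genes tested the median was 0.04, with 52.8% above 0.

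The genes that rose in BV+ cells were Mrpl55, Mrps14 and Mrpl9. Mrpl55, a protein of the central protuberance of the large subunit, had 15.2 and 15.8 CPM in BV+ Ctrl and 26.3 and 24.9 in BV+ NRF1 OE. Its log2 fold change was 0.72 ± 0.13 SE (adjusted p = 0.0169), the highest of the 78. Mrps14, a protein of the head of the small subunit, had 31.7 and 30.7 CPM in BV+ Ctrl and 46.1 and 40.2 in BV+ NRF1 OE, a log2 fold change of 0.47 ± 0.13 (adjusted p = 0.0458). For these genes and for Mrpl9, a large subunit protein with a bacterial counterpart, the groups did not overlap. Mrpl9 lay at 52.8 and 51.6 CPM in BV+ Ctrl and at 77.6 and 66.2 in BV+ NRF1 OE, a log2 fold change of 0.46 ± 0.13 (adjusted p = 0.0485). Mrpl9 overlaps Oaz3 on the opposite strand and whether counting used the strand is not given in the sources used here, so its reads are uncertain. In the same contrast 1 of 8 PGC and 1 of 3 mesoderm markers were called higher and 1 of 5 pluripotent cell markers lower. The part of these markers in the result was not tested. None of the 78 genes was called when BV+ NRF1 OE replicate 1, BV+ Ctrl replicate 1 or BV+ Ctrl replicate 2 was left out, 21 were called without BV- NRF1 OE replicate 2 (0% and 29.4% of all genes in the same fits), and the mesenchyme markers rose with NRF1 OE in the same libraries (3 of 3, median log2 fold change 2.26), whose part in the result was not tested.

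In BV- cells 21 of the 78 genes rose with NRF1 OE and 0 fell, which is 26.9% against a background of 17.2% of all genes called, 10.2% higher and 6.98% lower. At the cut-off of the study, an unadjusted p under 0.05 and a log2 fold change beyond 0.58, 1 of the 78 genes was called in BV+ cells (background 17%) and 4 in BV- cells (background 16%). Of the 21, 12 carry Mrpl and 9 Mrps symbols, and both Mrps18a and Mrps30 are among the 9. Every NRF1 OE library was above every Ctrl library for 58 of the 78 genes (background 29.4%) and below for 3 (background 27.6%). The median log2 fold change was 0.28, 0.26 for the large and 0.31 for the small subunit genes, with 70 of 78 above 0. Over all genes tested it was 0.01, with 50.7% above 0.

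The largest rise in BV- cells was that of Mrps34, a small subunit protein found in mitochondria and not in bacteria. Mrps34 had 18.4 and 22.1 CPM in BV- Ctrl and 29.1, 37.5 and 32.9 in BV- NRF1 OE, a log2 fold change of 0.71 ± 0.16 (adjusted p = 0.0317). Mrpl12, the stalk protein, had 105 and 113 CPM in BV- Ctrl and 145, 192 and 163 in BV- NRF1 OE, a log2 fold change of 0.61 ± 0.14 (adjusted p = 0.0317). In both genes the lowest NRF1 OE library was above the highest Ctrl library. Mrpl57, a large subunit protein found in mitochondria and not in bacteria, had 19.7 and 21.3 CPM in BV- Ctrl and 29.9, 33.7 and 30.2 in BV- NRF1 OE, a log2 fold change of 0.61 ± 0.14 (adjusted p = 0.0317). Mrps11, on the platform of the small subunit, had 31.1 and 32.5 CPM in BV- Ctrl and 38.9, 55.8 and 49.3 in BV- NRF1 OE, a log2 fold change of 0.59 ± 0.17 (adjusted p = 0.0404). The groups did not overlap for these genes either. Mrps11 shares exon sequence on the opposite strand with Mrpl46, whose log2 fold change in the same comparison was -0.03 (adjusted p = 0.898), Mrpl12 overlaps Gm16755, and Mrps34 overlaps Nme3 and Mapk8ip3. With offsets for GC content and transcript length in the fit, Mrps34 (0.24, adjusted p = 0.139), Mrpl12 (0.17, adjusted p = 0.148) and Mrps11 (0.21, adjusted p = 0.216) were no longer called, while Mrpl57 was (0.99, adjusted p = 0.0321).

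The other 17 genes called in BV- cells, given by symbol as the remaining calls, were Mrpl2, Mrpl4, Mrpl11, Mrpl14, Mrpl17, Mrpl20, Mrpl28, Mrpl38, Mrpl54 and Mrpl58 of the large and Mrps6, Mrps16, Mrps18a, Mrps24, Mrps27, Mrps28 and Mrps30 of the small subunit symbols. No call in BV- cells was left when any 1 of the 4 Ctrl libraries (BV+ or BV-) or BV- NRF1 OE replicate 3 was left out, 13 were called without BV- NRF1 OE replicate 2, and 34 (32 higher, 2 lower) without BV- NRF1 OE replicate 1. Of all genes, 0% to 0.207% were called in the fits with no call among the 78, 14.6% without replicate 2 and 34.6% without replicate 1. With the BV- groups fitted alone, 0 of the 77 genes that passed the filter and 0% of all genes were called. In the same contrast 4 of 8 PGC markers (Dppa3, Tfap2c, Nanos3 and Dnd1) and 1 of 3 mesenchyme markers (Acta2) were higher with NRF1 OE. Of 4 endoderm markers 1 was lower (Gata6), and of 5 pluripotent cell markers 1 was higher and 1 lower. The part of these markers in the result was not tested.

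**Figure D1:**
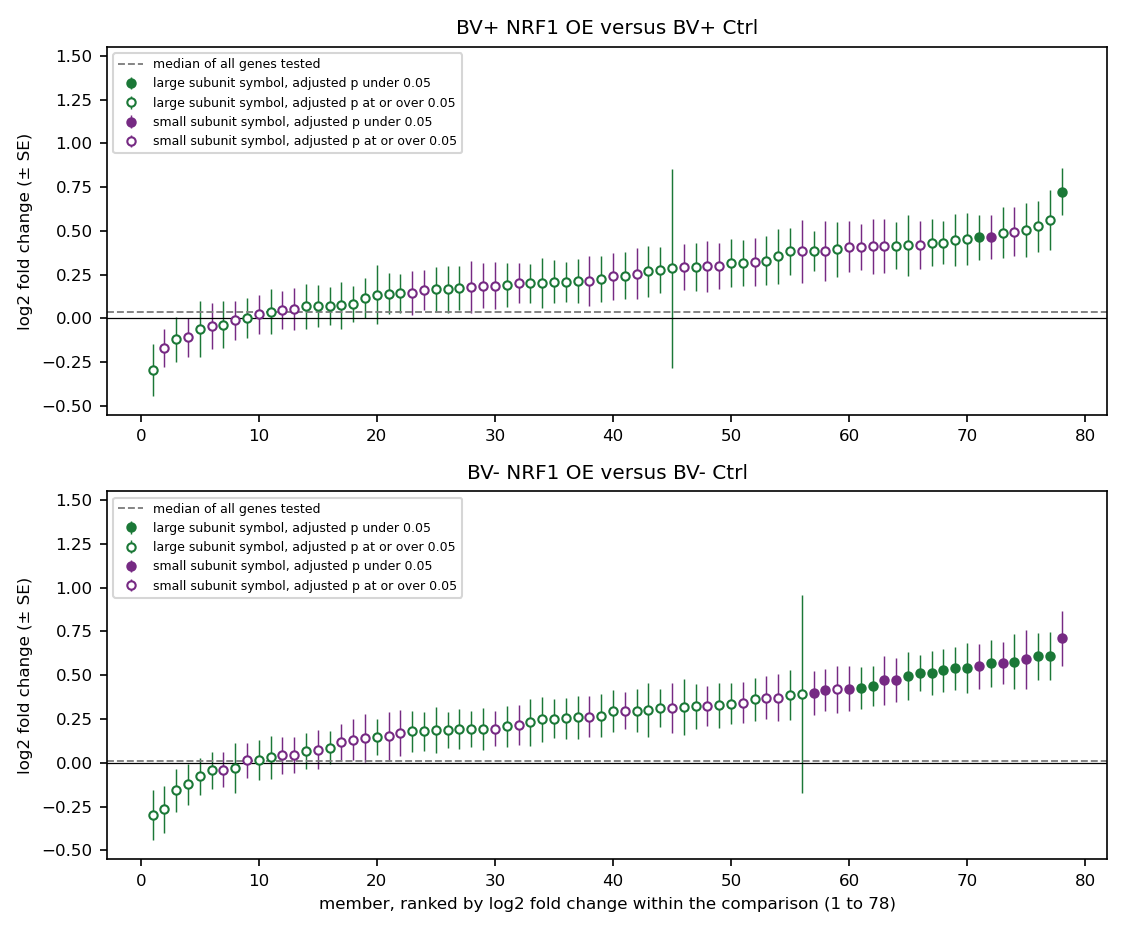
Log2 fold change of NRF1 OE over Ctrl (vertical axis, with SE) for the 78 mitoribosomal protein genes, ranked within BV+ cells (upper panel) and BV- cells (lower panel); filled points have an adjusted p under 0.05 and the dashed line is the median of all genes tested. In each population 70 of the 78 points lie above 0, with 3 filled in BV+ and 21 in BV- cells; with GC content and length offsets 56 and 63 lie above 0.

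**Figure D2:**
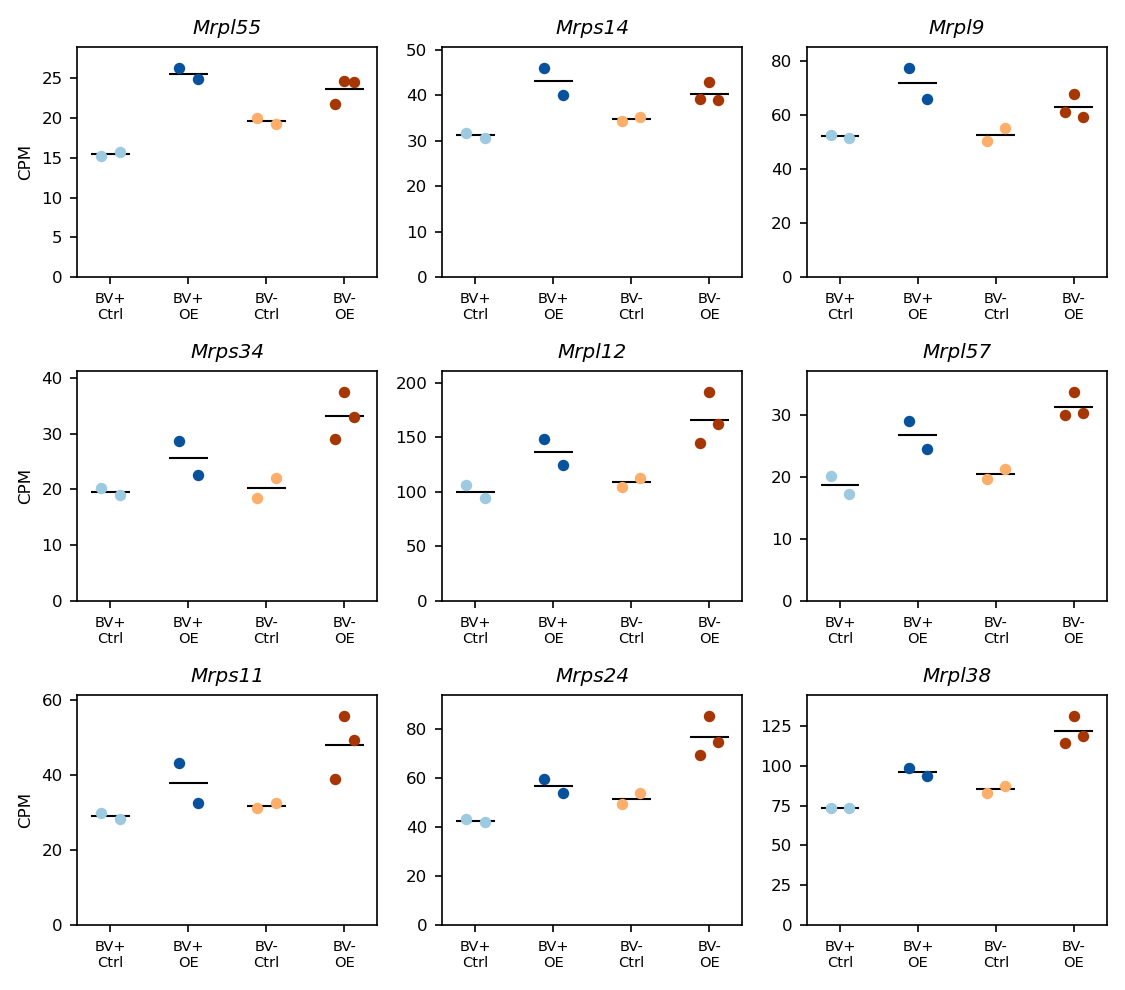
CPM per library (points) and group mean (line) of 9 called genes, at most the 4 with the largest rise or fall within each comparison, from 0, in the BV+ and BV- libraries with Ctrl or NRF1 OE. Mrpl55 separates BV+ Ctrl at 15.2 and 15.8 CPM from the other groups, and for Mrps24 and Mrpl38 the BV+ NRF1 OE libraries lie below the BV- NRF1 OE libraries.

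By role, the 3 stalk and factor-binding genes Mrpl10, Mrpl11 and Mrpl12 had log2 fold changes of 0.19, 0.46 and 0.45 in BV+ cells, none of which passed the test. In BV- cells they were 0.34, 0.50 and 0.61, and Mrpl11 (adjusted p = 0.0383) and Mrpl12 rose. Of the 4 genes around the peptidyl transferase centre, where peptide bonds form, Mrpl2 rose in BV- cells (0.51 ± 0.13, adjusted p = 0.0334). With GC content and length offsets the calls of Mrpl11 (0.35, adjusted p = 0.0584), Mrpl12 and Mrpl2 (0.016, adjusted p = 0.911) ended. The others of that group did not pass the test, with Mrpl16 at 0.25 and Mrpl27 at 0.25 in BV- cells. Mrpl45, which sits at the tunnel exit and anchors the mitoribosome to the inner membrane, differed little, with 0.08 ± 0.10 in BV+ and 0.09 ± 0.09 in BV- cells (adjusted p = 0.595 and 0.529). Of the 6 exit tunnel genes, Mrpl17 was the 1 that passed, in BV- cells.

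Mrpl58 is a peptidyl-tRNA hydrolase that can release stalled peptides. It had 43.8 and 47.6 CPM in BV- Ctrl and 59.5, 73.6 and 64.7 in BV- NRF1 OE, and rose by a log2 fold change of 0.53 ± 0.12 (adjusted p = 0.0317). It reached 0.38 ± 0.13 in BV+ cells (adjusted p = 0.085), and the gene overlaps the antisense gene Ict1os. Mrpl44, a large subunit protein with a ribonuclease III fold, had log2 fold changes of 0.14 in BV+ and 0.31 in BV- cells, neither of which passed (adjusted p = 0.413 and 0.0644).

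Among small subunit genes, Mrps12, at the decoding site where codons are read, had log2 fold changes of 0.30 in BV+ and 0.37 in BV- cells (adjusted p = 0.179 and 0.069). Mrps22, a small subunit protein found in mitochondria and not in bacteria, stayed between 29.4 and 32.9 CPM over all 9 libraries, and did not pass the test in BV+ (log2 fold change 0.05, adjusted p = 0.781) or BV- cells (0.07, adjusted p = 0.654). The 3 Mrps18 paralogs did not pass together. Mrps18a, which the ribosome structures place in the large subunit despite its symbol, rose in BV- cells (0.47 ± 0.13, adjusted p = 0.0374, but 0.13 and adjusted p = 0.375 with GC content and length offsets), while Mrps18b was at 0.37 (adjusted p = 0.0553) and Mrps18c at 0.17 (adjusted p = 0.351). Mrps36, known as a component of the oxoglutarate dehydrogenase complex and absent from the mitoribosome structures, was at 0.18 in BV+ and 0.15 in BV- cells (adjusted p = 0.408 and 0.426).

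Large and small subunit genes kept nearly the same proportion in all libraries. Summed FPKM of the 49 large subunit genes was 1120 and 1182 in BV+ Ctrl, 1309 and 1402 in BV+ NRF1 OE, 1233 and 1299 in BV- Ctrl, and 1428, 1667 and 1483 in BV- NRF1 OE. The 29 small subunit genes summed to 485 and 511 in BV+ Ctrl, 555 and 597 in BV+ NRF1 OE, 511 and 545 in BV- Ctrl, and 602, 700.0 and 623 in BV- NRF1 OE. Within each population the NRF1 OE libraries were above the Ctrl libraries for both subunits, and the ratio of the large to the small sum stayed between 2.31 and 2.41 over the 9 libraries.

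**Figure D3:**
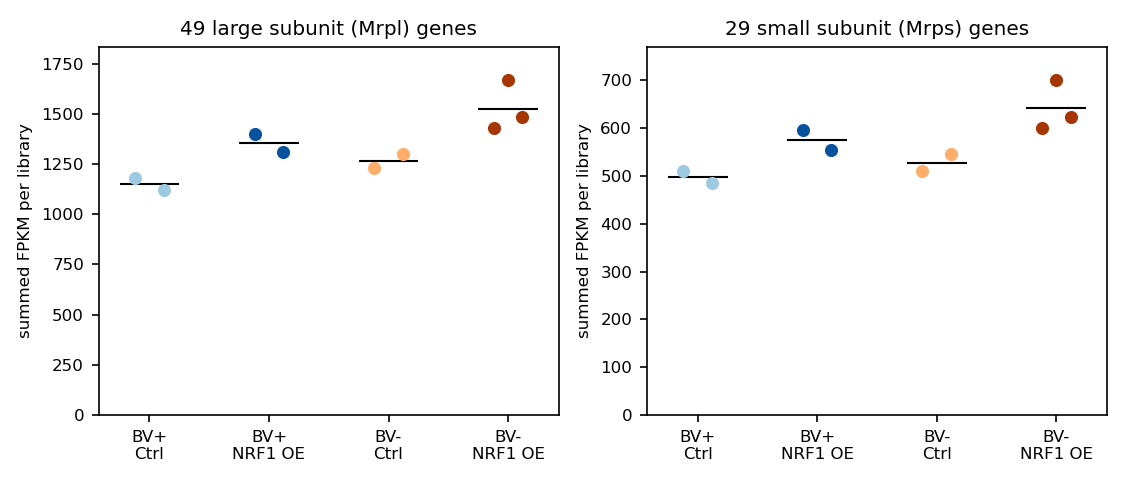
Summed FPKM per library (points) and group mean (line) of the 49 large subunit and the 29 small subunit genes, from 0, for the 4 groups. In both panels the NRF1 OE libraries lie above the Ctrl libraries of the same population, and BV- NRF1 OE replicate 2 is the highest library.

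A few of the 78 genes lay on the other side. Mrpl1 and Mrpl50, named here after their values were seen, had every NRF1 OE library below every Ctrl library in both populations. Mrpl1 had 43.7 and 41.1 CPM in BV+ Ctrl, 33.4 and 35.5 in BV+ NRF1 OE, 41.3 and 41.7 in BV- Ctrl, and 40.4, 29.6 and 33.5 in BV- NRF1 OE. Its log2 fold changes of -0.30 and -0.27 did not pass the test (adjusted p = 0.185 and 0.166). Mrpl50 was at -0.06 and -0.30 (adjusted p = 0.816 and 0.150). Among the 78 genes they have transcripts of low GC content, 41.4% for Mrpl1 and 42.3% for Mrpl50. With GC content and length offsets the values were -0.013 in BV+ and 0.19 in BV- cells for Mrpl1, and 0.14 and 0.020 for Mrpl50, so the direction turned in all but the first of these.

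The log2 fold changes went with the GC content of the transcripts, in the 78 genes and in all genes alike. Spearman's rho across genes, which are not independent replicates and share the libraries, was 0.49 in BV+ and 0.59 in BV- cells over the 78 genes, and 0.48 and 0.62 over 16662 genes. In the 26 genes of lowest GC content (41.4% to 48.8%) the median log2 fold change was 0.16 in both populations, and 3 rose in BV- cells. In the 26 of highest GC content (52.7% to 60.6%) the medians were 0.38 and 0.41, and 13 rose in BV- cells. Of all genes tested, whatever their GC content, 17.2% were called in BV- cells (10.2% higher). The share called among all genes of the same GC content was not computed. Offsets fitted per library to take out the dependence on GC and transcript length lowered the median over the 78 genes to 0.13 in BV+ and 0.13 in BV- cells, with 56 and 63 of 78 above 0, beside -0.02 and -0.01 over all genes. With these offsets the order turned around, to a median of 0.35 in the 26 genes of lowest and 0.01 in the 26 of highest GC content in BV- cells. By symbol, the medians with offsets were 0.14 for the large and 0.13 for the small subunit genes in BV+ cells. In BV- cells they were 0.09 and 0.21, a difference that was not tested.

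Which genes were called depended on these offsets. In BV- cells 15 were called with them, beside 6.11% of all genes in the same fit, and 6 of the 15 were among the 21 called without. In BV+ cells 7 were called, beside 11.8% of all genes, and Mrps14 (log2 fold change 0.66, adjusted p = 0.0221) and Mrpl9 (0.44, adjusted p = 0.0235) were among them, while Mrpl55 was not. Mrpl57 was called with offsets in both populations, at 0.75 in BV+ (adjusted p = 0.0298) and 0.99 in BV- cells (adjusted p = 0.0321). The Spearman correlation of GC content with a library's deviation from the mean over libraries was -0.50 to -0.41 in the 4 Ctrl libraries, 0.30 and 0.03 in BV+ NRF1 OE, and 0.02, 0.61 and 0.47 in BV- NRF1 OE, so GC content and NRF1 OE cannot be told apart by the design.

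**Figure D4:**
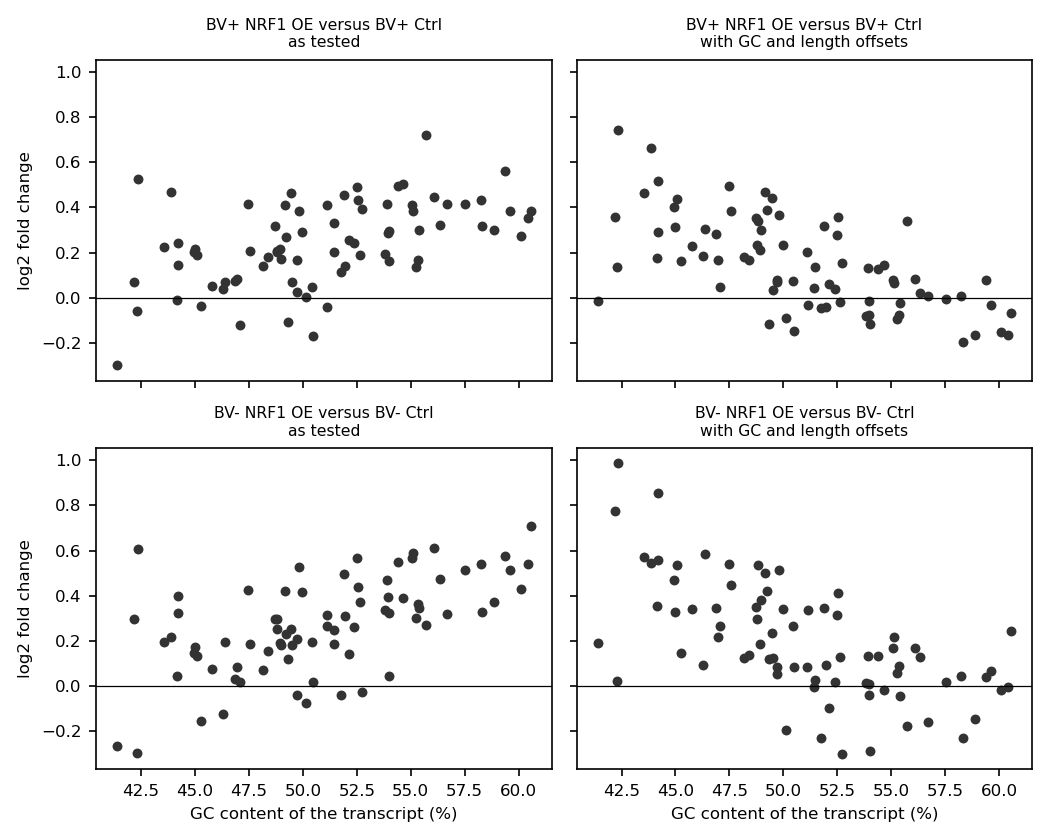
Log2 fold change of NRF1 OE over Ctrl against the GC content of the transcript (%) for the 78 genes, in BV+ (upper) and BV- cells (lower), as tested (left) and with GC content and length offsets (right). The points run upward on the left, with rho of 0.49 and 0.59, and downward on the right, where in BV- cells the 26 genes of lowest GC content have a median of 0.35 and the 26 of highest 0.01.

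The 13 genes with an NRF1 motif in the promoter window had a median log2 fold change of 0.41 in BV+ cells, compared with 0.22 for the 56 without it. In BV- cells the medians were 0.31 and 0.25. Of the 13 genes with the motif, 1 rose in BV+ cells (Mrpl9) and 4 in BV- cells (Mrpl12, Mrpl14, Mrpl17 and Mrpl57), while 2 and 12 of the 56 without it did. Of all genes tested, 8.02% were called in BV+ cells (6.24% higher) and 17.2% in BV- cells (10.2% higher). The share called among all genes with the motif was not computed. Mrpl45 with its 3 matches and Mrpl32 with the palindrome did not pass in either population, and Mrpl32 was at 0.07 in BV+ and 0.29 in BV- cells. With GC content and length offsets in BV- cells, Mrpl12 and Mrpl14 (0.038, adjusted p = 0.842) were no longer called. Mrpl17 (0.41, adjusted p = 0.0338) and Mrpl57 still were, and Mrpl32 (0.78, adjusted p = 0.0354) was called as well. The transcripts with and without the motif had median GC contents of 49.5% and 50.8%. These groups of genes were not tested against each other.

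Between the populations at Ctrl, 0 of the 78 genes were called by edgeR and 0 by DESeq2, beside a background of 1.12% called (1.1% higher, 0.0237% lower), and 3 had an unadjusted p under 0.05. The median log2 fold change of BV+ over BV- was -0.13, with 6 of 78 above 0, and for 49 genes both BV+ Ctrl libraries lay below both BV- Ctrl libraries (background 25.4%), while for 0 they lay above (background 22.6%). With NRF1 OE the median was -0.20, with 13 of 78 above 0, and 42 genes had every BV+ library below every BV- library (background 19.5%), while 1 had them above (background 20.3%). There 2 genes were lower in BV+ cells and 0 higher, or 2.56% of the 78, beside 13.8% of all genes called, 9.9% higher and 3.85% lower. At the cut-off of the study 0 of the 78 were called at Ctrl (background 5.74%) or with NRF1 OE (background 14.7%).

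The genes that were lower in BV+ cells with NRF1 OE were Mrps24 and Mrpl38. Mrps24, in the head of the small subunit at the entry of the mRNA, had 59.6 and 53.7 CPM in BV+ NRF1 OE and 69.5, 85.4 and 74.9 in BV- NRF1 OE, a log2 fold change of -0.43 ± 0.12 (adjusted p = 0.0342). Mrpl38, of the central protuberance, had 98.4 and 93.7 CPM in BV+ NRF1 OE and 114, 131 and 119 in BV- NRF1 OE, a log2 fold change of -0.34 ± 0.10 (adjusted p = 0.0485). Neither gene's groups overlapped, and Mrps24 shares exon sequence with Urgcp on the same strand. The 2 calls became 19 with GC content and length offsets (18 lower, 1 higher, beside 25.3% of all genes), 15 without BV- NRF1 OE replicate 1 (beside 18.8%) and 0 without any 1 of the other 8 libraries (beside 4.46% to 14.8%). The comparisons between the populations use the same libraries as those of NRF1 OE with Ctrl, so their values are not independent of each other. The mesenchyme markers, 3 of 3 higher in BV+ cells here with a median log2 fold change of 4.57, moved with the same contrast. Also called higher were 1 of 3 mesoderm and 1 of 2 neuroectoderm markers. Called lower were 3 of 8 PGC and 2 of 5 pluripotent cell markers. The part of these markers in the result was not tested.

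The effect of NRF1 OE was not shown to differ between the populations for any of the 78 genes. The test of the difference called 0 of 78 by edgeR and 0 by DESeq2, beside 0% of all genes by edgeR (at the cut-off of the study 0 of 78, background 4.48%), and 1 of the 78 had an unadjusted p under 0.05. That gene was Mrpl55, whose log2 fold change was 0.72 in BV+ and 0.27 in BV- cells, a difference of 0.45 ± 0.18 SE (edgeR, adjusted p = 0.811). The differences over the 78 genes ran from -0.33 to 0.45 with a median of -0.04.

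Other parts of the mitochondrial translation machinery were read from lists of genes chosen by function. Of 5 mitoribosome subunits without an Mrp symbol, Chchd1 rose in BV+ cells (0.53, adjusted p = 0.0493), and Chchd1, Aurkaip1 and Gadd45gip1 rose in BV- cells, at 0.48, 0.47 and 0.57. Of 17 translation factors tested, 0 were called in BV+ cells. In BV- cells Oxa1l, which inserts proteins into the inner membrane, rose (0.38, adjusted p = 0.0411), and Guf1, an elongation factor, and Mtrf1, a release factor, fell by 0.81 and 0.60 on the log2 scale. Of 31 assembly and rRNA modification factors, 0 were called in BV+ and 7 rose in BV- cells, the rRNA methyltransferase Mrm3 by 0.56. The background for these counts was 8.02% of all genes called in BV+ cells (6.24% higher, 1.78% lower). In BV- cells it was 17.2% (10.2% higher, 6.98% lower). With GC content and length offsets the median of the 5 subunits went from 0.29 to 0.04 in BV+ and from 0.47 to 0.22 in BV- cells. That of the translation factors went from 0.06 to -0.05 and from 0.12 to 0.05. For the assembly and rRNA modification factors it went from 0.20 to -0.0057 and from 0.22 to 0.06.

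The mitochondrially encoded partners of these proteins moved less clearly. The rRNA of the small subunit, mt-Rnr1, had 219 and 233 CPM in BV+ Ctrl, 371 and 220 in BV+ NRF1 OE, 142 and 230 in BV- Ctrl, and 316, 405 and 173 in BV- NRF1 OE. The rRNA of the large subunit, mt-Rnr2, had 676 to 922 CPM over the 9 libraries. Neither was called in BV+ or BV- cells, the groups overlapped for both, and the libraries were made from poly(A) RNA, which limits what these counts say about rRNA. Of the 13 mitochondrial mRNAs, 0 were called with NRF1 OE in either population, with medians of 0.23 in BV+ and -0.16 in BV- cells. With GC content and length offsets the medians were 0.45 and 0.21, so the direction in BV- cells turned. At the cut-off of the study 4 of the 13 were called higher in BV+ and 0 in BV- cells. Of all 16903 genes tested, 1653 and 969 were called higher at that cut-off, and 17% and 16% in either direction.

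The nuclear genes of respiratory complex I, whose other subunits the mitoribosome makes, were set beside them. Of these 37 genes, 10 rose in BV+ and 20 in BV- cells and 0 fell, with medians of 0.42 and 0.44, above the 0.23 and 0.28 of the 78 mitoribosomal genes. These shares of 27% and 54.1% stand beside the same backgrounds of 8.02% and 17.2%. In BV- cells Ndufb4, Ndufb2, Ndufb11 and Ndufs8 had the largest rises among them, at 0.70, 0.63, 0.60 and 0.58. With GC content and length offsets the medians were 0.21 and 0.11, beside 0.13 and 0.13 for the mitoribosomal genes. The lists were not tested against each other.

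**Figure D5:**
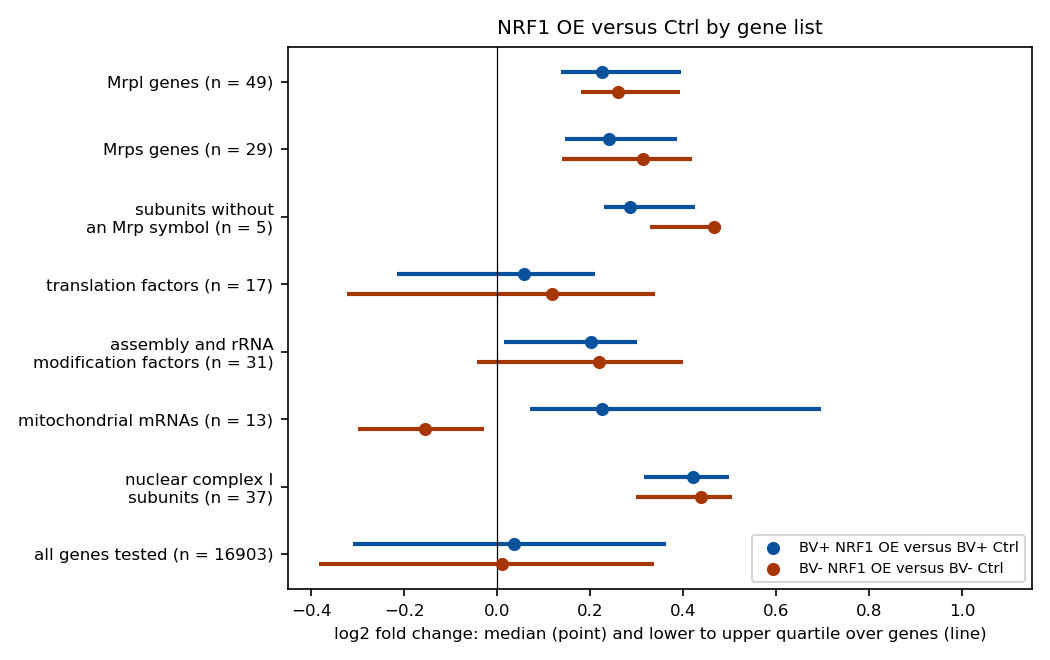
Median (point) and lower to upper quartile over genes (line) of the log2 fold change of NRF1 OE over Ctrl in BV+ (blue) and BV- cells (brown) for each list, with the number of genes tested in brackets. The Mrpl and Mrps lists lie between 0.22 and 0.31 without offsets, and the 5 subunits without an Mrp symbol at 0.29 and 0.47. Complex I lies at 0.42 and 0.44, and all genes tested at 0.04 and 0.01.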

How the data were processed

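RNA-seq was measured in 9 libraries of 4 groups, grouped by the labels. The authors trimmed the reads, aligned them to the mouse genome (GRCm39) with HISAT2 2.0.1 and deposited raw counts per gene made with HTSeq 0.6.1. The deposited FPKM values are fragment counts scaled by the authors for transcript length and library size. Strand use in the counting is not given in the sources used here.

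The counts were filtered (filterByExpr, 16903 of 33142 genes with a count were kept) and fitted over all 9 libraries with edgeR 4.0.16 (quasi-likelihood, two-sided, TMM factors 0.969 to 1.026) in R 4.3.3. Genes with a Benjamini-Hochberg adjusted p under 0.05 over all genes tested were called. CPM uses TMM-scaled library sizes, and the biological coefficient of variation was 0.129. Total counts of 13702162 to 19625460 limit the precision mainly for Mrpl53.

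Named genes were the 4 largest called rises and falls per comparison, the 3 highest and 3 lowest in mean FPKM, and genes picked for their role. From the other lists, at most 4 called genes and the mitochondrial rRNAs were named. The genes and lists were chosen with earlier results of these data known. Alternatives were DESeq2 1.42.0, other scalings, no filter, fits of the compared groups alone, a replicate block, length or GC offsets, the cut-off of the study (unadjusted p under 0.05 and a change of over 0.58 on the log2 scale), and leaving out each library. Transcript GC content and gene overlaps came from GENCODE M21. Same-numbered replicates had correlations of deviations between -0.30 and 0.24. In the smaller groups the deviations of the libraries mirror each other, so between these groups both replicate numbers gave the same value. These correlations therefore cannot decide whether the samples are paired, by the same number or crossed.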

Additional observations from a re-analysis of the deposited data

How the results depend on the processing

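The direction of the median over the 78 genes held under all 18 alternatives. It ran from 0.13 to 0.30 for NRF1 OE over Ctrl in BV+ cells, 0.13 to 0.32 in BV- cells, -0.19 to -0.10 for BV+ over BV- at Ctrl and -0.26 to -0.12 with NRF1 OE. Which genes were called did depend on the setting, and the cause was not tested. The share of all genes called in the same fit follows each count in brackets. Against 3 calls in BV+ cells there were 12 with DESeq2 (12.6%), 1 with upper-quartile factors (7.62%), 1 with library size alone (5.94%), 5 with no filter (10.4%), 16 with the BV+ groups fitted alone (26.8%), 1 with length offsets (9.19%), 7 with GC content and length offsets (11.8%), and 1 (17%) at p under 0.05 with a log2 fold change beyond 0.58. Against 21 calls in BV- cells there were 4 at that last threshold (16%) and 0 with the BV- groups alone (0%). At Ctrl, BV+ against BV- gave 1 call with the Ctrl groups alone (5.52%). With NRF1 OE, against 2 calls, there was 1 with each of DESeq2 size factors, upper-quartile factors, library size alone and no filter (8.48% to 13.8%), 0 with the groups alone (7.8%) and 0 at the p and fold threshold (14.7%), 10 with length offsets (17.4%) and 19 with GC content and length offsets (25.3%). The difference of effects gave 0 throughout. Leaving out 1 library at a time gave 0 to 21 calls in BV+ cells (0% to 29.4%), 0 to 34 in BV- cells (0% to 34.6%), 0 to 0 at Ctrl (0.175% to 2.87%), 0 to 15 with NRF1 OE (4.46% to 18.8%), and 0 to 0 for the difference (0% to 0.195%).

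With the replicate block there were 0 calls in each of the 5 comparisons (0% to 6.29% of all genes), and the labels share only numbers between groups. A crossed replicate block on the 4 Ctrl libraries alone, chosen after seeing the data, gave 17 calls (12.9% of all genes), and the straight pairing of the same libraries gave 0 (5.11%).

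Some named genes that had not passed the test in the population given changed sign. In BV+ cells with GC content and length offsets these were Mrps34 (-0.070), Mrpl10 (-0.081), Mrps18b (-0.021), Mrpl44 (-0.042), Mrps12 (-0.17), Mrpl2 (-0.0050), Mrpl34 (-0.20), Mrpl23 (-0.096) and Mrpl53 (-0.076), and with length offsets Mrpl45 (-0.059), Mrpl44 (-0.030), Mrps22 (-0.011) and Mrps36 (-0.0069). In BV- cells they were Mrpl55 (-0.18), Mrps12 (-0.15) and Mrpl34 (-0.23) with GC content and length offsets, beside Mrpl1 (0.19) and Mrpl50 (0.020, and 0.14 in BV+ cells), which had been below 0, and Mrps18c (-0.029), Mrpl45 (-0.045) and Mrps36 (-0.044) with length offsets. With 1 library left out, Mrps22 ran from -0.0038 (without BV+ Ctrl replicate 2) to 0.11 in BV+ cells, and Mrpl53 from -0.46 (without BV+ NRF1 OE replicate 1) to 0.89, with -0.092 without BV+ Ctrl replicate 1. Depth limits Mrpl53 most among the 78 genes.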
